A study of Homo sapiens with 2 samples.

Results

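The 10 genes JUN, JUNB, JUND, IER2, IER3, IER5, CYR61, DUSP5, MYC and SGK1 encode immediate early or otherwise short-lived mRNAs. They were taken by symbol from a table of 14914 features measured in HUH7, a widely used hepatocellular carcinoma cell line of human origin, and all 10 had a row. The series asked which RNAs of this line are bound by CSTF2. It holds 1 library of RNA recovered with CSTF2 by RNA immunoprecipitation (the IP library) and 1 library of the line's input RNA (the Input library). Neither group carries a named genetic change, drug or stimulus in the labels, so these mRNAs were measured in cells with no stated induction.

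Immediate early genes are switched on within minutes of a growth factor, serum or stress signal, without new protein synthesis, and their mRNAs are usually degraded soon afterwards. Many of these mRNAs carry AU-rich elements in the 3′ UTR, built from repeats of the pentamer AUUUA, to which proteins such as ZFP36 and KHSRP bind and recruit the decay machinery. CSTF2, also called CstF-64, acts at the other step that shapes a 3′ end. It is the subunit of the cleavage stimulation factor that contacts the GU-rich or U-rich sequence downstream of the cleavage site, while the polyadenylation signal AAUAAA upstream of it is read by the cleavage and polyadenylation specificity factor. In liver, JUN and MYC are known for their part in regeneration and in hepatocellular carcinoma.

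The members' 3′ ends are shown because the AU-rich pentamer and the polyadenylation signal lie there, written as DNA in the sense of the transcript. The GU-rich or U-rich sequence that CSTF2 contacts lies past the transcript end and is not printed. For each gene 1 protein-coding GENCODE v29 transcript was used, the longest of those that GENCODE marks as principal. The first set gives, for 7 of the 8 members with the pentamer, the 30-base window of the 3′ UTR that holds the most copies, with ATTTA in capitals.
IER5: ttcctttATTTATTTATTTATTTAattata
IER3: taattaatATTTAtatgtATTTAtgtacgt
CYR61: taaccATTTAataaagaaatATTTAcctaa
SGK1: ttgcaataaaaccttgaaaaatATTTAcat
JUN: tttgcttatgaatATTTAtaacagcattct
JUNB: ttttattgaatctATTTAagtaaaaaaaaa
JUND: tcgattctgccctATTTAtgtttctactcg
On GRCh38 these lie at chr1:181092448-181092477 (plus strand) for IER5, chr6:30743648-30743677 (minus) for IER3, chr1:85583676-85583705 (plus) for CYR61, chr6:134169249-134169278 (minus) for SGK1, chr1:58780819-58780848 (minus) for JUN, chr19:12793270-12793299 (plus) for JUNB and chr19:18279998-18280027 (minus) for JUND. IER5 has 4 overlapping copies in its window, and IER3 and CYR61 have 2 each. MYC, with 4 copies in its 3′ UTR, is the member not printed.

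The second set gives the last 30 bases of the transcripts of DUSP5, IER2 and JUN, the members with the highest IP over Input ratios, with the polyadenylation signal AATAAA in capitals.
DUSP5: taaAATAAAaatagtaaaaggagaaaagca
IER2: taggaaAATAAAaaccatttgagtaaaaaa
JUN: gtcacAATAAAtgtattcaaataccaataa
These end the transcripts at chr10:110511515-110511544 (plus), chr19:13154879-13154908 (plus) and chr1:58780788-58780817 (minus). The signal was present in the last 30 bases for 5 of the 10 members, those 3 with IER3 and SGK1, and for 55.5% of 7503 protein-coding transcripts with a 3′ UTR of at least 30 bases. The variant ATTAAA was in that window for none of the members and for 15.5% of those transcripts. Motifs were searched on the transcript strand only, and they describe these letters, not a binding site.

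Assigned reads numbered 3220045 in the IP library and 9517885 in the Input library. The values are RPKM, reads scaled to gene length and library depth, and the reads behind each value were recovered from the table. There is 1 library per group, so no difference has a replicate check, and the 95% intervals given here cover counting error only. The mRNA of CSTF2 had 487 RPKM and 3429 reads in the IP library against 6.97 RPKM and 145 reads in the Input library. Its ratio was 69.9 (59.2 to 83.1), and the cause of this excess was not tested. All 8 hepatoma markers examined, such as ALB, AFP and APOB, were listed, at 1.43 to 353 RPKM in the IP library and 4.25 to 311 RPKM in the Input library. Of 9 markers of blood, endothelial and stromal cells, CD68, COL1A2, LUM and ACTA2 were listed, with summed levels of 10.3 RPKM in the IP library and 9.14 RPKM in the Input library, and they went in different directions. The macrophage marker CD68 had 3.12 RPKM in the IP library against 0.576 RPKM in the Input library, and the smooth muscle actin gene ACTA2 had 0.417 against 0.0706 RPKM. The stromal genes COL1A2 and LUM had 1.61 and 5.16 RPKM in the IP library against 1.22 and 7.27 RPKM in the Input library. PTPRC, PECAM1, VWF, COL1A1 and HBB had no row. In such bulk RNA, fewer cells of a type and less RNA per cell cannot be told apart, and the part of other cells in the values below was not tested.

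The 10 mRNAs went in different directions. On the scale log2((IP + 1)/(Input + 1)) of the RPKM values, which understates the change of low features, they ran from -0.40 for CYR61 to 1.05 for JUN, with a median of 0.09. The 9880 features whose mean over the libraries reached 1 RPKM, all 10 members among them, had a median of 0.17 and a middle range of -0.31 to 0.60. JUN was the 1 member at least 2-fold higher in the IP on this scale, against a background of 9.88% of features. No member was at least 2-fold lower, against a background of 6.83%. Over protein-coding features only, the kind of all 10 members, these backgrounds were 5.81% and 5.19%. By RPKM ratio without the added 1 RPKM, JUN, IER2 and DUSP5 passed 2-fold in the higher direction. This is a count of 3 against 19.6% of features and 15.8% of protein-coding features. The counting interval of the ratio lay above 1 for the same 3 members and below 1 for CYR61 and SGK1, against 36.1% and 20.1% of features. Together the members took 781 reads, 0.0243% of the IP library (Wilson interval 0.0226 to 0.0260), against 2069 reads, 0.0217% of the Input library (0.0208 to 0.0227). The ratio of these shares was 1.12 (1.03 to 1.21), and the median RPKM ratio of the 9880 features was 1.18.

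**Figure D1:**
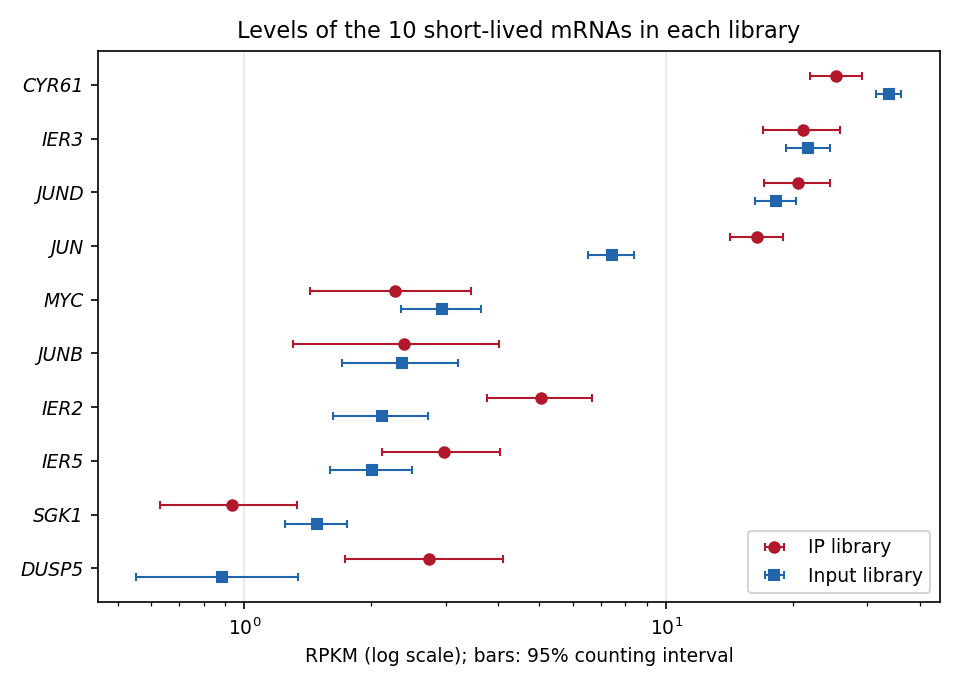
RPKM of each mRNA on a log axis in the IP library (circles) and the Input library (squares), with 95% Poisson counting intervals from the recovered reads and 1 library per group. JUN, IER2 and DUSP5 have IP intervals above their Input intervals, and CYR61 has the reverse.

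The JUN family encodes the basic leucine zipper subunits that pair with FOS or ATF proteins to form the transcription factor AP-1. JUN had 16.4 RPKM in the IP library, from 187 reads, against 7.42 RPKM in the Input library, from 250 reads. The IP interval of 14.1 to 18.9 RPKM lay wholly above the Input interval of 6.53 to 8.40 RPKM, and the ratio was 2.21 (1.82 to 2.68). Its log2 ratio ranked 881 of the 9880 features from the top, and 0.87 of it remained after subtracting the median of all features.

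JUND, the family member that many cells express without stimulation, had 20.5 RPKM and 123 reads in the IP against 18.2 RPKM and 322 reads in the Input. Its ratio of 1.13 (0.910 to 1.39) had an interval that includes 1, and its log2 ratio of 0.17 became -0.01 when centred on the median of all features. JUNB, which can oppose JUN at some target genes, had 2.39 RPKM in the IP library against 2.37 RPKM in the Input library, on 14 and 41 reads. Its ratio of 1.01 (0.508 to 1.89) was compatible with a difference of nearly 2-fold either way, and its log2 ratio of 0.01 became -0.16 when centred. The interval of JUN did not overlap that of JUND but did overlap that of JUNB. JUNB shares 259 of its 1820 exonic bases with HOOK2, a gene of a microtubule linker protein on the other strand. HOOK2 had 3.55 RPKM in the IP library and 1.27 RPKM in the Input library, and since no source says that strand was recorded, its reads and those of JUNB cannot be told apart in the shared bases.

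The IER genes were named as immediate early response genes and are not a protein family as a whole. IER2, a small nuclear protein linked to transcription, had 5.05 RPKM and 50 reads in the IP against 2.12 RPKM and 62 reads in the Input. The intervals, 3.75 to 6.66 RPKM in the IP library and 1.63 to 2.72 RPKM in the Input library, did not overlap, and the ratio was 2.38 (1.61 to 3.52). An antisense gene, AC011446.2, shares 946 of the 3072 exonic bases of IER2 and had no row under that name. As with JUNB, reads from either strand cannot be told apart in the shared bases.

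IER5, a relative of IER2 tied to the heat shock response, had 2.97 RPKM and 40 reads in the IP against 2.01 RPKM and 80 reads in the Input. Its ratio was 1.48, with an interval of 0.985 to 2.19 that just includes 1. IER3, a regulator of cell survival also called IEX-1, had 21.1 RPKM and 92 reads in the IP against 21.7 RPKM and 280 reads in the Input, a ratio of 0.971 (0.759 to 1.23). The IER2 and IER3 ratios had intervals that do not overlap, while that of IER5 overlapped both. IER3 shares 359 of its 1356 exonic bases with the antisense gene IER3-AS1, which had no row under that name, and the same limit holds there.

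DUSP5 encodes a nuclear phosphatase that inactivates ERK, the kinase whose signalling induces it. It had 2.73 RPKM in the IP library from 23 reads against 0.884 RPKM in the Input library from 22 reads. The ratio of 3.09 was the highest of the 10 members, with an interval of 1.65 to 5.81. DUSP5 was above 40.6% of the 9880 features in the IP and above 9.06% of them in the Input. The added 1 RPKM kept it at a log2 ratio of 0.99, just inside 2-fold.

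MYC encodes the transcription factor that pairs with MAX and drives growth and ribosome synthesis. Its gene lies on chromosome 8, and it had 2.28 RPKM and 22 reads in the IP against 2.94 RPKM and 84 reads in the Input. The ratio of 0.774 had an interval of 0.461 to 1.25, so neither an excess nor a deficit was detectable at this depth.

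CYR61, also called CCN1, encodes a secreted matrix protein and is a target of YAP and serum response factor. It was the most abundant member in both libraries, at 25.3 RPKM and 200 reads in the IP against 33.7 RPKM and 787 reads in the Input. The IP interval of 21.9 to 29.1 RPKM lay below the Input interval of 31.4 to 36.1 RPKM, and CYR61 was 1.33-fold lower in the IP (1.14 to 1.56). SGK1, a serum and glucocorticoid induced kinase that acts on ion channels and transporters, had 0.932 RPKM and 30 reads in the IP against 1.48 RPKM and 141 reads in the Input, 1.59-fold lower (1.07 to 2.44). It was above 4.24% of the 9880 features in the IP and above 24.7% in the Input. The RPKM of SGK1 was scaled to all 9992 exonic bases of its many transcripts, while the transcript used here has 3201, and which transcripts were present was not measured, so its level per length depends on that choice of length.

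**Figure D2:**
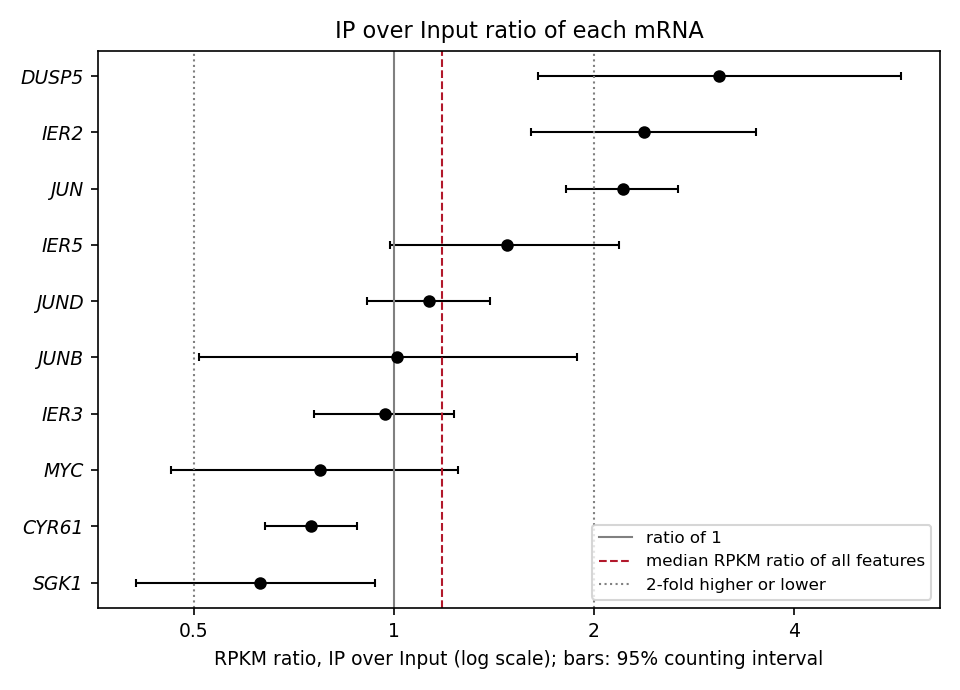
RPKM ratio of IP over Input for each mRNA on a log axis, with exact conditional 95% counting intervals, a solid line at 1, a dashed line at the median RPKM ratio of all features (1.18) and dotted lines at 2-fold. DUSP5, IER2 and JUN lie above 2, SGK1 and CYR61 have intervals below 1, and the other 5 intervals include 1.

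By level per length, the order in the IP was CYR61, IER3, JUND, JUN, IER2, IER5, DUSP5, JUNB, MYC and SGK1. In that order, neighbours had overlapping counting intervals except JUN and IER2, and MYC and SGK1. In the Input the order was CYR61, IER3, JUND, JUN, MYC, JUNB, IER2, IER5, SGK1 and DUSP5, with CYR61 apart from IER3, JUND apart from JUN and JUN apart from MYC. The members spanned 27.1-fold from lowest to highest in the IP and 38.1-fold in the Input. The first 4 places were held by CYR61, IER3, JUND and JUN in both libraries, and JUN stood nearer to JUND in the IP than in the Input.

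The members held more AU-rich pentamers than the median expressed gene. Their median density was 3.66 ATTTA per kb of 3′ UTR, against 1.74 over 7503 protein-coding transcripts. In windows of equal length, the last 300 bases of the 3′ UTR, ATTTA was present in 7 of 10 members and in 50.3% of 6320 transcripts. The longer form TATTTAT, which contains the pentamer, was present in 4 of 10 members and in 11.0% of transcripts. These elements are part of what short-lived mRNAs are known for, and the members were chosen as such.

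Within the group, the members with the most pentamers per kb had the lower ratios, a pattern looked for after the ratios were known. DUSP5 and IER2 had no pentamer in the 3′ UTR and had 2 of the 3 highest log2 ratios, 0.99 and 0.96. JUND had 1.47 per kb, JUN 2.33, IER5 3.32 and JUNB 4.0, with log2 ratios of 0.17, 1.05, 0.40 and 0.01. SGK1 had 4.89 per kb, CYR61 5.43, IER3 8.14 and MYC 8.40, with log2 ratios of -0.36, -0.40, -0.04 and -0.27. The 4 members with more than 4 per kb thus lay between -0.40 and -0.04, and the 6 with 4 or fewer between 0.01 and 1.05. JUNB, at 4.0 per kb, sits on the edge of this split, which was set after the values were seen. The gap between IER3 and JUNB, the nearest of each set, was far smaller than their counting intervals. The split also depends on the use of density. By number of copies IER5 had the most, 10 in a 3′ UTR of 3013 bases, with its log2 ratio of 0.40. TATTTAT had 4 copies in IER5 and IER3, 2 in CYR61, 1 in JUN, JUND and SGK1, and 0 in MYC, JUNB, DUSP5 and IER2.

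The same comparison across protein-coding features with a 3′ UTR of at least 300 bases gave smaller differences. The median log2 ratio was 0.23 over 1202 features with no pentamer, 0.32 over 1997 with up to 2 per kb, 0.09 over 2129 with up to 4 per kb and 0.02 over 992 with more. Base composition moved with the ratio as well. The median was 0.41 over 1091 features whose transcript has at least 60% G and C and -0.01 over 2819 with less than 45%. The 4 members with more than 4 pentamers per kb had 46.5% to 58.2% G and C and the other 6 had 49.8% to 69.7%. The part of base composition in the members' order was not tested.

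**Figure D3:**
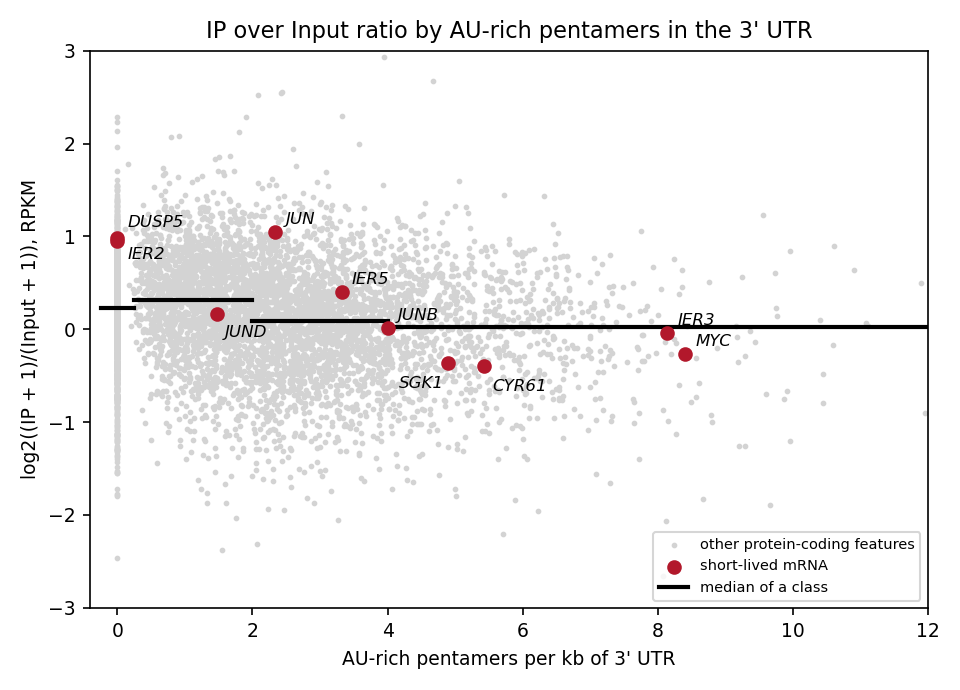
Log2 ratio of IP over Input (with 1 RPKM added to each value) against the number of AU-rich pentamers per kb of 3′ UTR, for the 10 mRNAs (large points) and other protein-coding features (grey), with bars at the median of each density class and 11 features outside the axes. The 4 members with more than 4 pentamers per kb lie between -0.40 and -0.04, and DUSP5 and IER2, with none, lie at 0.99 and 0.96.

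Gene structure varied among the members too. JUN, JUNB, JUND and IER5 are single-exon genes, an unusual form among protein-coding genes, and their log2 ratios of 1.05, 0.01, 0.17 and 0.40 covered most of the range of the group. Genes were classed by the highest exon number of their transcripts. That number is 2 for IER2, although the IER2 transcript whose 3′ end is printed above has 1 exon. Over all 160 single-exon protein-coding features the median was -0.14, with a middle range of -0.79 to 0.46, against 0.16 over 7464 features with 2 or more exons. Exon length went with the ratio across features. The median log2 ratio was -0.55 over 378 features under 1500 bp, -0.19 over 1446 from 1500 bp, 0.08 over 2207 from 3000 bp and 0.33 over 3594 of 5000 bp or more. JUN with 3540 bp, IER2 with 3072 bp and DUSP5 with 2615 bp lay well above the medians of their length classes. IER5 with 4188 bp, JUND with 1863 bp and JUNB with 1820 bp lay above theirs as well. SGK1, with 9992 bp, lay below the median of the longest class, and CYR61, with 2455 bp, and MYC, with 3001 bp, below those of their own. IER3, the shortest member with 1356 bp, lay above the median of the shortest class.

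**Figure D4:**
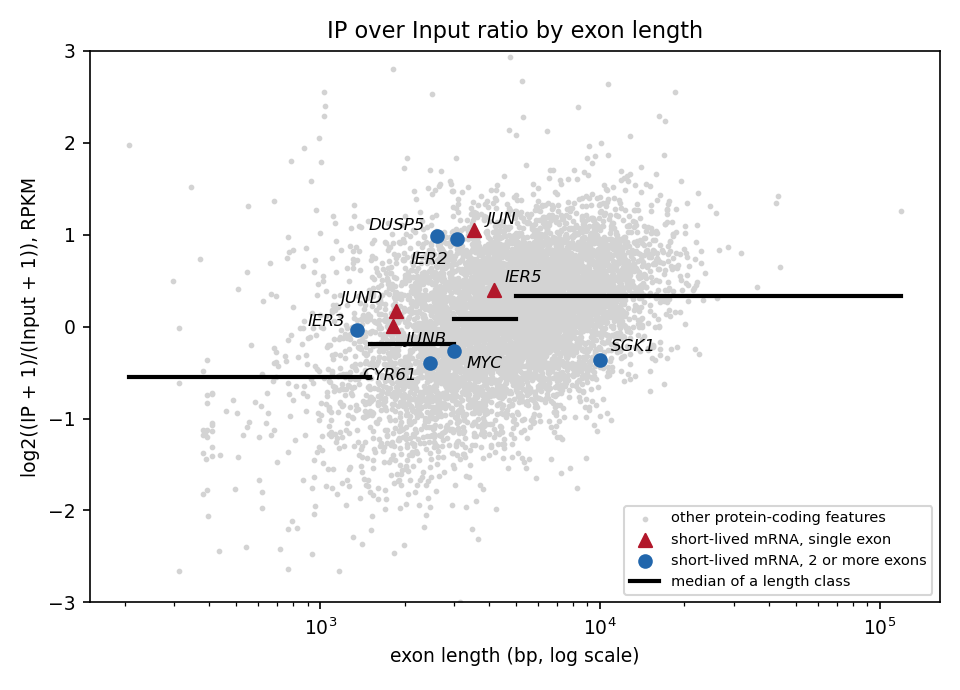
Log2 ratio of IP over Input (with 1 RPKM added to each value) against exon length on a log axis, for the 10 mRNAs (triangles, single-exon genes; circles, 2 or more exons) and other protein-coding features (grey), with bars at the median of each length class and 6 features outside the axes. The class medians climb from -0.55 to 0.33 with length. JUN, IER2, DUSP5, IER5, JUND, JUNB and IER3 stand above theirs, and SGK1, CYR61 and MYC stand below. Exon number is the highest among a gene's transcripts.

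The partners and relatives of these genes were examined as 8 lists of 110 genes in all, of which 89 had a row and 73 reached a mean of 1 RPKM. On the log2 scale with 1 RPKM added, TEAD3 and KHSRP of these 73 passed 2-fold in the higher direction and none in the lower, where 5.81% of all protein-coding features were higher and 5.19% lower by that much. By RPKM ratio without the added 1 RPKM, 9 of the 73 were at least 2-fold higher and none at least 2-fold lower, where 15.8% of protein-coding features were higher and 9.18% lower. The median log2 ratio of the 73 was 0.15, and the list medians below are on that scale, with 1 RPKM added. The list closest in kind, other immediate early and short-lived mRNAs, held 34 genes, of which 26 had a row and 21 passed the filter. The genes below the filter were left out of the counts that follow. The 21 had a median of 0.12 and no member past 2-fold on that scale. Without the added 1 RPKM, 1 of the 21 passed 2-fold. This was the highest, TNFAIP3, an inhibitor of NF-κB signalling, with 5.04 RPKM in the IP library and 2.06 RPKM in the Input library, a ratio of 2.45 (1.80 to 3.31). Its lowest was ID2, an inhibitor of basic helix-loop-helix factors, 1.47-fold lower (1.03 to 2.15).

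Of 11 mRNAs of AP-1 and ATF proteins that pair with JUN, 5 had a row and 3 passed the filter. Each of these 3 had a ratio whose interval includes 1. Their median was -0.07, from ATF3 at a ratio of 0.924 (0.529 to 1.55) to ATF2 at 0.895 (0.683 to 1.16). FOSL2 and JDP2 were below the filter and are named after their values were seen. FOSL2 had 0.434 RPKM from 10 reads in the IP library against 0.0881 RPKM from 6 reads in the Input library. That is a ratio of 4.93 (1.62 to 16.5) on few reads. JDP2 had 0.847 RPKM from 17 reads in the IP library against 1.04 RPKM from 62 reads in the Input library. Its ratio was 0.810, with an interval that includes 1 (0.444 to 1.40). The kinases of the JNK and ERK pathways, which act on JUN and on the targets of DUSP5, had 10 genes with a median of 0.12. The lowest, MAP2K4, a kinase that activates JNK, was 1.75-fold lower (1.22 to 2.56).

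The other MAP kinase phosphatases, relatives of DUSP5, had 5 genes past the filter and a median of 0.54. DUSP10 had a ratio of 3.28 (1.65 to 6.59) on 20 IP and 18 Input reads, close to the values of DUSP5, while DUSP1, itself an immediate early gene, was 1.33-fold lower with an interval that includes 1 (0.898 to 2.03).

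The MYC network of MAX partners and antagonists had 9 genes and a median of -0.17. MLXIP, a glucose-responsive relative, had a ratio of 3.21 (2.40 to 4.29), and its partner MLX was 1.74-fold lower (1.27 to 2.45). The CCN family and YAP-TEAD list had 10 genes and a median of 0.29. TEAD3, a DNA-binding partner of YAP, had 5.51 RPKM in the IP library and 1.66 RPKM in the Input library, a ratio of 3.33 (2.21 to 5.01). YAP1 was 1.43-fold lower (1.01 to 2.06). CTGF, the CCN family relative of CYR61, is named outside the naming rule, after its value was seen. It had 119 RPKM in the IP library and 93.7 RPKM in the Input library, a ratio of 1.27 (1.17 to 1.37), whereas CYR61 was lower.

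The list of the SGK family and its activators, which also held NEDD4L, had 6 genes and a median of 0.35. It ran from SGK3 at a ratio of 2.16 (1.41 to 3.30) to MLST8, a subunit of the mTOR complexes, at 0.773 (0.491 to 1.18). SGK3 was thus above 1 by its interval and SGK1 below 1. The AU-rich element binding proteins had 9 genes and a median of 0.16. KHSRP, which promotes decay of AU-rich mRNAs, had 63.1 RPKM in the IP library and 26.2 RPKM in the Input library, a ratio of 2.41 (2.21 to 2.63), and HNRNPD, also called AUF1, was 1.11-fold lower (1.01 to 1.21).

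**Figure D5:**
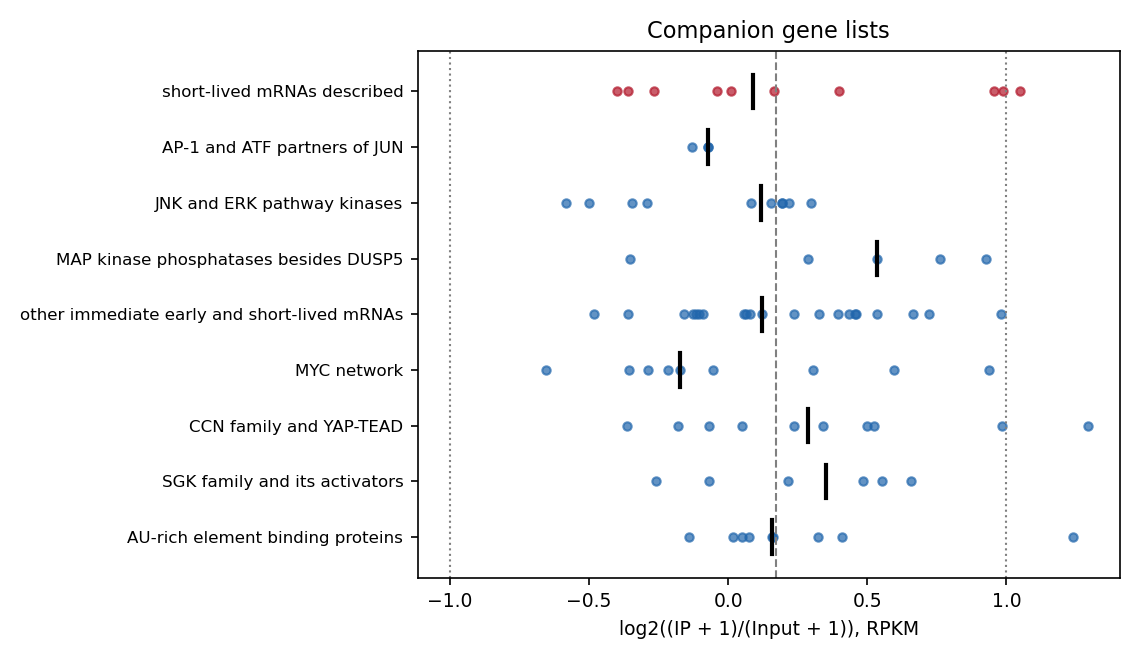
Log2 ratio of IP over Input (with 1 RPKM added to each value) for the 10 mRNAs (top row) and the members of 8 companion lists that passed the filter, 1 point per gene, with a bar at each list's median, a dashed line at the median of all features (0.17) and dotted lines at 2-fold. The list medians lie between -0.17 and 0.54, and TEAD3, KHSRP and JUN are the points past 2-fold on this scale.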

How the data were processed

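RNA from CSTF2 immunoprecipitation (1 library) and input RNA (1 library) of HUH7 cells was sequenced. Per the labels' protocols, a RIP kit was used and libraries were made from fragmented RNA with random hexamers. Per the submitters' processing notes, FastQC 0.12.0 and build hg38 were used. No aligner, read counter or gene annotation is named (not given in the sources used here). The authors deposited, per the file headers, an RPKM value for each library and the log2 fold change between them, IP over Input. That fold change served only to recover reads.

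Reads were recovered with Python 3.11.15 and SciPy 1.17.1. The deposited fold changes hold prior counts of 0.0632 (IP) and 0.187 (Input) reads, and solving them with the RPKM values gave whole reads within 0.01 for 14913 of 14914 features, 11451 at the GENCODE v29 exon length (GRCh38). The procedure was also run on simulated Poisson reads with the same fold change formula. That run could not reveal a different formula or noise beyond counting. Ratios carry exact conditional (Clopper-Pearson) 95% intervals, levels Poisson intervals and shares Wilson intervals. PCR reads are not independent molecules, so these cover counting error only. No p-value was computed, since there is 1 library per group.

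The measure was log2((IP + 1)/(Input + 1)) for features whose mean reached 1 RPKM. The members and lists were chosen with earlier results of these data known. Named were all members, CSTF2 and the highest and lowest gene of each list, of which 1 is not reported here. Overlapping or shared genes, CTGF, FOSL2 and JDP2 were added after values were seen. Pseudocount, filter, scaling and threshold were varied. A mock immunoprecipitation was not used here.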

Additional observations from a re-analysis of the deposited data

How the results depend on the processing

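No paired analysis was possible because each group is 1 library and no test was made. The number of members at least 2-fold higher in the IP (1) was 3 with a pseudocount of 0.1 RPKM (JUN, IER2 and DUSP5) and at 1.5-fold, and 0 with a pseudocount of 5 RPKM, at 4-fold, after centring on the median of all features and after scaling to nuclear protein-coding reads. The number at least 2-fold lower was 0 under each alternative. The members' median log2 ratio (0.09) turned to -0.085 after centring and -0.081 after scaling to nuclear protein-coding reads, and was 0.06 to 0.09 under the other pseudocounts and filters, with 4 members left at 5 RPKM. Nuclear protein-coding reads were 33.3% of the IP and 28.9% of the Input. This shifts log2 ratios without a pseudocount by -0.20, and those with 1 RPKM added by less. This scaling and the minimum of 20 reads were chosen after the data were seen.

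Over the 9880 features, the 976 higher and 675 lower became 1830 and 1023 with 0.1 RPKM added, and 186 and 295 with 5 RPKM added. They were 2569 and 1484 at 1.5-fold, 151 and 149 at 4-fold, 684 and 944 after centring, and 727 and 921 after nuclear scaling. With fewer features left, they were 327 and 407 of 3499 at the 5 RPKM filter, and 632 and 596 of 9175 with at least 20 reads. Of 54 values of single members under an alternative, 50 stayed within the member's counting interval. That interval is of the RPKM ratio without a pseudocount, while the values have one, so the 2 are on different scales. The values of 10 members without a filter and of 4 at the 5 RPKM filter could not move. A filter leaves a member's own ratio unchanged. The 4 values outside the interval were JUN, IER2 and DUSP5 with 5 RPKM added (0.79, 0.50 and 0.39) and JUN after nuclear scaling (0.86), all still above 0. Depth limits JUNB, MYC, DUSP5 and SGK1 most, with 14 to 30 reads in the IP.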
